A study of Mus musculus with 24 samples.

Results

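The receptor gene Ccr7, the 3 genes for inhibitory G protein alpha subunits (Gnai1, Gnai2 and Gnai3) and the 2 genes for beta-arrestins (Arrb1 and Arrb2) were followed across derivatives of EO771, a mouse mammary carcinoma cell line. They were taken by gene symbol and Ensembl identifier: 6 of the 55471 genes counted in batch 1, and 5 of the 13915 genes counted in batch 2, where Gnai1 was not among the genes listed. X2 cells carried the retroviral control vector, and CCR7 cells a pLNCX2 vector with mouse Ccr7 cDNA and the reporter tdTomato. The study also detected tdTomato in tumours of X2 cells, so its presence does not set CCR7 cells apart. CCR7-PDPN and X2-PDPN cells were sorted from transduced and from vector control cells for podoplanin (PDPN) that had appeared on their surface spontaneously, and the CCR7 cells were the PDPN-negative sort of the transduced cells. X2 was not described as a sort for absence of PDPN. The treatment description states that clones were not selected, whereas the series' design text calls the derivatives subclones. X2, CCR7 and CCR7-PDPN were sequenced in batch 1, and X2, X2-PDPN and CCR7-PDPN in batch 2, with 4 libraries per derivative and batch. The libraries of a derivative were technical replicates of 1 cultured population, so every p-value below measures the spread between such replicates and not between independently made populations. Each of the 4 derivatives is 1 transduced or sorted population, so the introduced or sorted gene cannot be told apart from anything else that distinguishes that population.

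CCR7 binds the chemokines CCL19 and CCL21, which guide dendritic cells, T cells and some tumour cells into lymphatic vessels and lymph nodes. The ligand-bound receptor exchanges GTP on a trimeric Gi protein, whose alpha subunit lowers cyclic AMP while its beta-gamma subunits drive migration through phospholipase C, PI3 kinase and Rac. Receptor kinases then phosphorylate the receptor tail, and beta-arrestins bind it, end G protein coupling and carry the receptor into clathrin-coated pits.

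In GRCm38, Ccr7 (ENSMUSG00000037944) lies at chr11:99144196-99155077 on the minus strand, and Gnai1 (ENSMUSG00000057614) at chr5:18265135-18360355, also minus. Gnai2 (ENSMUSG00000032562) lies at chr9:107614125-107635367 and Gnai3 (ENSMUSG00000000001) at chr3:108107280-108146146, both on the minus strand. Arrb1 (ENSMUSG00000018909) lies at chr7:99535466-99606771 and Arrb2 (ENSMUSG00000060216) at chr11:70432635-70440828, both on the plus strand. The last 36 coding bases of the 3 Gi genes, stop codon included, encode the tail that fits into an activated receptor and holds the cysteine (tgt) modified by pertussis toxin. They are shown because they are the part of Gi that meets CCR7, and because they show how far the paralogs differ; capitals mark the 12 positions at which the genes are not all alike.
Gnai1: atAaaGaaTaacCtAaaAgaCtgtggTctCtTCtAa
Gnai2: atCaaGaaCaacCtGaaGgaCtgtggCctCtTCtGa
Gnai3: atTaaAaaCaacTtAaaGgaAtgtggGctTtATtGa
They were read 5′ to 3′ from the GENCODE M21 transcripts and lie on the minus strand at chr5:18267019-18267054, chr9:107615635-107615670 and chr3:108109422-108109457. Over the whole coding sequence Gnai2 and Gnai3 were identical at 73.7% of aligned positions, with a longest identical run of 22 bases, and Arrb1 and Arrb2 at 69.8%, with a longest run of 18 bases. No stretch of 75 bases, the read length, was shared between any of the 6 genes. Of the stretches of that length in Gnai2, 0.781% also occurred in another gene, and of those in Arrb1 0.105%. Arrb2 shared 64 exonic bases with the microRNA gene Mir7115 on the same strand, so reads there cannot be assigned to 1 of the genes.

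Total counts per library were 22275468 to 33395418 in batch 1 and 22788542 to 35721027 in batch 2. Pdpn, the gene for the sorted protein, followed the labels: it stood at 49.9 ± 1.63 TPM (transcript abundance scaled for gene length and library depth) in CCR7-PDPN of batch 2 and at 52.9 ± 0.261 TPM in X2-PDPN (SD, n = 4), against 0.855 ± 0.300 TPM in CCR7 and 0.128 ± 0.0879 TPM in X2 of batch 1. Of 5 markers listed for the carcinoma line, Krt8 and Vim were abundant, while Epcam, Cdh1 and Krt18 had at most 9 counts in any batch 1 library. Of 9 leukocyte markers, 5 or 6 had at most 3 counts in every library of a batch 1 group, and Cd3e, a T cell receptor chain, had 0. The summed level of the leukocyte markers was 1.97 to 2.28 TPM in X2, 6.19 to 7.04 TPM in CCR7 and 7.72 to 10.2 TPM in CCR7-PDPN of batch 1. It was 1.90 to 2.62 TPM in X2, 5.43 to 6.55 TPM in X2-PDPN and 7.49 to 8.87 TPM in CCR7-PDPN of batch 2, where 6 of the 9 markers were not listed. It came mainly from Cd79a, with 8 to 19 counts in X2 and 83 to 111 in CCR7-PDPN of batch 1 and 51 to 64 in X2-PDPN. Ptprc, which marks all leukocytes, had at most 4 counts. The summed endothelial markers stayed between 0.676 and 1.41 TPM in all 24 libraries, and the fibroblast markers between 52.3 and 69.9 TPM, from Pdgfra, the only 1 of 3 above 3 counts.

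Ccr7 was counted in 4 to 15 reads per library in X2 cells and in 61655 or more in every library of transduced cells. The X2 libraries of batch 1 held 15, 4, 9 and 12 reads, and those of batch 2 held 9, 5, 12 and 14. CCR7 cells held 87681, 82171, 94609 and 61655 reads, which is 0.274% to 0.283% of all counts of a library. CCR7-PDPN cells held 98991, 97230, 87079 and 83100 reads in batch 1 and 76999, 97687, 100109 and 80939 in batch 2. No library without the Ccr7 vector came near a library with it. Per length, Ccr7 reached 5327 ± 139 TPM in CCR7, 5660 ± 315 TPM in CCR7-PDPN of batch 1 and 5911 ± 335 TPM in CCR7-PDPN of batch 2 (SD, n = 4), where it ranked 8th, 7th and 6th of the 13915 genes in both tables. In X2 it stood at 0.655 ± 0.291 and 0.644 ± 0.229 TPM in the 2 batches. The counts do not separate reads of the vector from reads of the gene in the genome. The study did not state the length of the Ccr7 cDNA in the vector, so these TPM values and ranks depend on the length assumed. Since RNA of whole cultures was measured, a change in the share of cells that hold a transcript and a change in the amount per cell cannot be told apart.

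**Figure D1:**
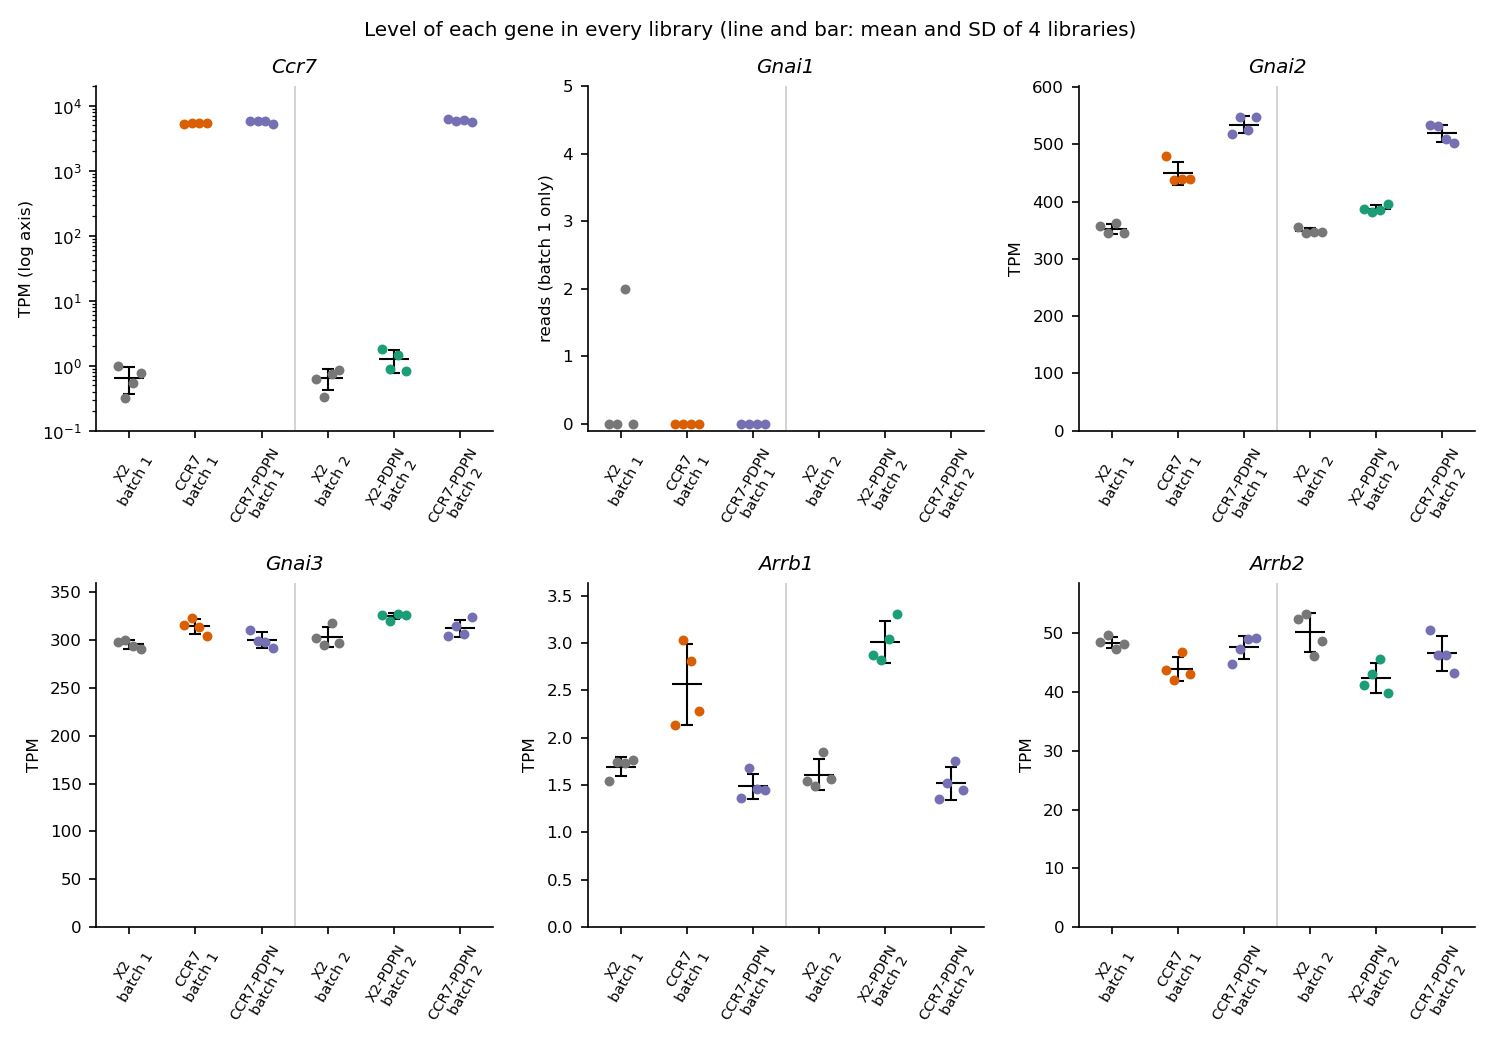
Level of each gene in every library, in TPM (logarithmic axis for Ccr7, linear axes from 0 for the others) or, for Gnai1, in reads of batch 1. Points are libraries, the horizontal line and bar are the mean and SD of 4 libraries, and the grey line separates batch 1 from batch 2. Ccr7 is high in the CCR7 and CCR7-PDPN libraries, Gnai2 lies lowest in X2, and Arrb1 is highest in CCR7 and X2-PDPN.

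Ccr7 was 7874-fold higher in CCR7 than in X2 (log2 fold change 12.94, adjusted p = 1.5e-22, edgeR), the largest difference of the 13261 genes tested. In CCR7-PDPN it was 8520-fold higher than in X2 in batch 1 and 9111-fold higher in batch 2. Between the PDPN-positive and PDPN-negative transduced cells the libraries overlapped. There CCR7-PDPN was 8.20% higher than CCR7 (log2 fold change 0.11, SE 0.04, 95% interval 0.02 to 0.20, adjusted p = 0.0417). This call was lost in 7 of 12 fits that left out 1 library, namely X2 replicate 3 or 4, CCR7 replicate 3 or 4, or CCR7-PDPN replicate 1, 2 or 3, and over the 12 fits the adjusted p ran from 0.00922 to 0.128.

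X2-PDPN libraries held 29, 17, 23 and 12 Ccr7 reads, or 1.25 ± 0.471 TPM. Of these, the lowest lay within the range of X2 and the others above it. The log2 fold change against X2 was 0.92 (SE 0.38, 95% interval 0.10 to 1.75) and did not pass the test with edgeR (adjusted p = 0.0537), while DESeq2 gave an adjusted p of 0.00274. With edgeR it passed in 5 of 12 fits that left out 1 library, namely X2 replicate 4, CCR7-PDPN replicate 1 or 4, or X2-PDPN replicate 2 or 4, and the log2 fold change then ran from 0.92 to 1.11. The reads in X2 libraries amounted to between 0.00462% and 0.0173% of the mean Ccr7 count of the transduced libraries of the same batch, and those in X2-PDPN libraries to between 0.0135% and 0.0326%. Whether such reads came from the cells of the library was not tested.

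Gnai1, the alpha subunit best known from brain, was nearly without reads. It had 2 reads in 1 X2 library of batch 1 and 0 in the other 11 libraries of that batch, and a count of 0 allows up to 3 reads. It did not pass the filter on low counts, and without that filter CCR7 against X2 had an adjusted p of 0.337. In the batch 1 derivatives nearly all Gi alpha transcripts were those of Gnai2 and Gnai3, and X2-PDPN has no value for Gnai1.

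Gnai2, the subunit through which chemokine receptors mainly signal in lymphocytes, stepped up from X2 to CCR7 and again to CCR7-PDPN. Its level was 357, 345, 363 and 346 TPM in the X2 libraries of batch 1 and 480.5, 438, 440.1 and 439 TPM in CCR7. In CCR7-PDPN of batch 1 it was 518, 547, 525 and 547 TPM. The 3 groups did not overlap. The X2 libraries of batch 2 gave 355, 346, 348 and 348 TPM, those of X2-PDPN 388, 382, 385 and 396 TPM, and those of CCR7-PDPN 533, 532, 509 and 503 TPM. Again no library of a group fell within the range of another group, and X2-PDPN lay closest to X2.

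The Gnai2 difference was 27.3% between CCR7 and X2 (log2 fold change 0.35, SE 0.04, adjusted p = 3.63e-08) and 21.1% between CCR7-PDPN and CCR7 (log2 fold change 0.28, SE 0.04, adjusted p = 2.54e-06). CCR7-PDPN exceeded X2 by 54.2% in batch 1 (adjusted p = 1.68e-12) and by 50.8% in batch 2 (adjusted p = 1.12e-23). Sorting for PDPN without CCR7 went with a smaller difference, 10.5% above X2 (log2 fold change 0.14, SE 0.03, adjusted p = 8.62e-06). CCR7-PDPN stood 36.4% above X2-PDPN (log2 fold change 0.45, SE 0.03, adjusted p = 3.00e-19). All of these calls held when any single library was left out.

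The genes around Gnai2 moved with it in most of these comparisons. Of 119 tested genes within 5 Mb on either side, 99 were higher and 7 lower in CCR7 than in X2, with a median log2 fold change of 0.38, and 69 of them exceeded Gnai2. Over all 13261 genes tested there, 3189 were higher and 3345 lower, which is 49.3% called. Less that median, the Gnai2 difference was -0.036. Between CCR7-PDPN and CCR7 the neighbours' median was 0.04 and 15 of them exceeded Gnai2, and the difference less the median was 0.24. For X2-PDPN against X2 the median was 0.14, close to the value of Gnai2 itself, and 0.01 remained. For CCR7-PDPN against X2 the neighbours had a median of 0.41 in batch 1, which left 0.22, and of 0.43 in batch 2, which left 0.16. Against X2-PDPN it was 0.28, which left 0.17. The part of the surrounding region in the Gnai2 level was not tested.

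**Figure D2:**
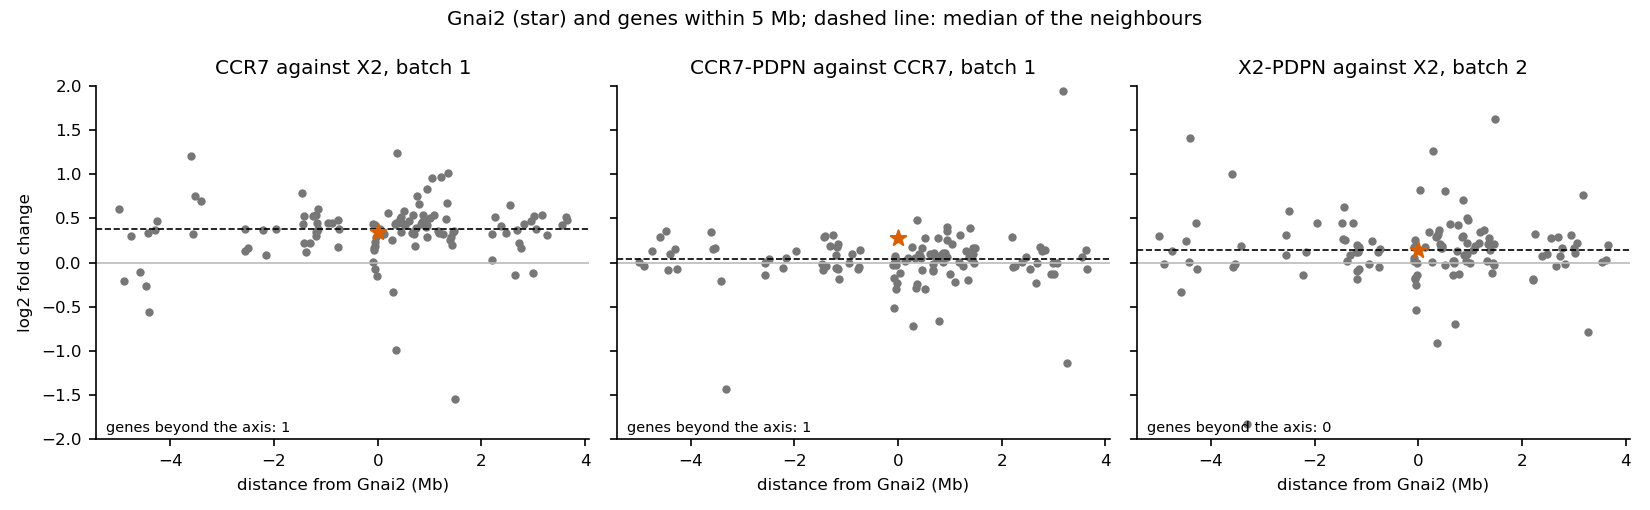
Log2 fold change of Gnai2 (star) and of the tested genes within 5 Mb (dots) against their distance from Gnai2 in Mb, in 3 comparisons; the dashed line is the neighbours' median, and the number of genes beyond the axis is given. Gnai2 sits at the neighbours' median in CCR7 against X2 (0.35 and 0.38) and in X2-PDPN against X2 (0.14 and 0.14), and above it in CCR7-PDPN against CCR7 (0.28 and 0.04).

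Gnai3, the other widely expressed Gi alpha subunit, changed little. It stood at 298, 300.4, 293 and 291 TPM in X2 of batch 1, at 316, 323, 314 and 305 TPM in CCR7 and at 311, 299, 298 and 291 TPM in CCR7-PDPN. CCR7 lay above X2 without overlap, and CCR7-PDPN overlapped both. The CCR7 to X2 difference was 6.27% (log2 fold change 0.09, SE 0.03, adjusted p = 0.0155). In batch 2, X2 held 302, 294, 318 and 297 TPM, X2-PDPN 326, 320.4, 327 and 326 TPM, and CCR7-PDPN 304, 315, 306 and 324 TPM. X2-PDPN lay above X2, by 6.83% (adjusted p = 0.00268), and CCR7-PDPN overlapped both groups. Less the median of the genes within 5 Mb of Gnai3, the log2 difference between X2-PDPN and X2 turned to -0.017. CCR7-PDPN differed from X2 by 3.21% in batch 1 (adjusted p = 0.179) and by 4.57% in batch 2 (adjusted p = 0.0368), the latter lost in 5 of 12 fits with 1 library left out, namely X2 replicate 1, 2 or 4 or CCR7-PDPN replicate 2 or 4 of batch 2, and with only the 2 groups compared (adjusted p = 0.0647). The call against X2 in CCR7 was lost without X2 replicate 4 (adjusted p = 0.0606) and without CCR7 replicate 2 (adjusted p = 0.0553) of batch 1, and with no filter on low counts (adjusted p = 0.0730).

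On the TPM scale Gnai2 made up 54.4% ± 0.759 of the summed Gnai2 and Gnai3 transcripts in X2 of batch 1, 58.8% ± 1.17 in CCR7 and 64.0% ± 1.19 in CCR7-PDPN (SD, n = 4). In batch 2 its share was 53.6% ± 0.890 in X2 and 54.4% ± 0.329 in X2-PDPN, against 62.4% ± 1.20 in CCR7-PDPN. The sum of both genes was 648 ± 9.08 TPM in X2 and 764 ± 22.9 TPM in CCR7 of batch 1, 713 ± 8.17 TPM in X2-PDPN, and 835 ± 10.3 and 831 ± 13.6 TPM in CCR7-PDPN of batch 1 and batch 2. Per length, then, Ccr7 transcripts exceeded those of both Gi subunits 6.98-fold in CCR7, and 6.78-fold and 7.11-fold in CCR7-PDPN of batch 1 and batch 2. With coding in place of exonic lengths these ratios were 3.81, 3.69 and 3.87, and the Gnai2 share was 56.1% in X2, 60.4% in CCR7 and 65.6% in CCR7-PDPN of batch 1. These shares and ratios are descriptions with no test. The ratios also rest on the length assumed for Ccr7, since that of the vector cDNA was not stated, and neither set of lengths bounds them.

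**Figure D3:**
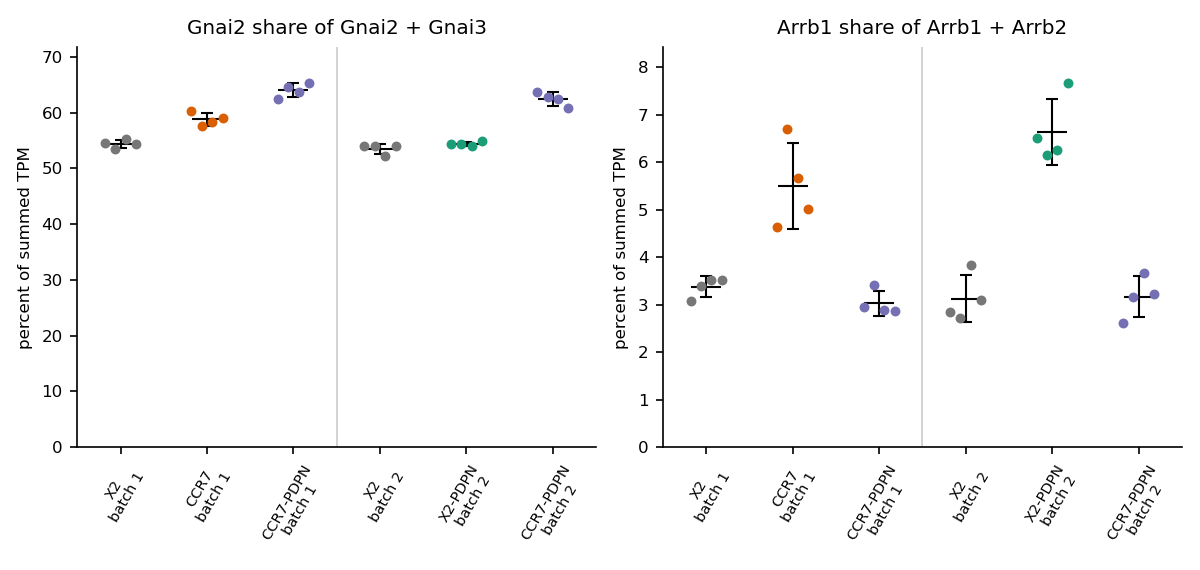
Share of Gnai2 in the summed TPM of Gnai2 and Gnai3 (left) and of Arrb1 in the summed TPM of Arrb1 and Arrb2 (right), in percent, for every library, with mean and SD of 4 libraries. The Gnai2 share is 54.4% in X2, 58.8% in CCR7 and 64.0% in CCR7-PDPN of batch 1, and the Arrb1 share is 5.51% in CCR7 and 6.65% in X2-PDPN against 3.03% to 3.38% elsewhere, all by exonic length (17.1% and 20.1% against 9.96% to 11.0% with coding lengths).

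Arrb1 was the scarcer beta-arrestin transcript, and it was higher in the 2 derivatives that carried only 1 of CCR7 and PDPN. Its level in batch 1 was 1.54, 1.74, 1.73 and 1.76 TPM in X2, 2.14, 3.03, 2.81 and 2.28 TPM in CCR7 and 1.36, 1.68, 1.46 and 1.45 TPM in CCR7-PDPN. CCR7 lay above both other groups, which overlapped each other. The X2 libraries of batch 2 gave 1.54, 1.49, 1.85 and 1.56 TPM, those of X2-PDPN 2.87, 2.82, 3.05 and 3.31 TPM, and those of CCR7-PDPN 1.35, 1.52, 1.76 and 1.45 TPM. Here X2-PDPN stood apart, and X2 and CCR7-PDPN overlapped. These levels rested on 93 to 305 reads per library.

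Arrb1 was 51.3% higher in CCR7 than in X2 (log2 fold change 0.60, SE 0.11, adjusted p = 8.05e-05) and 85.3% higher in X2-PDPN than in X2 (log2 fold change 0.89, SE 0.09, adjusted p = 1.21e-11). Relative to CCR7, it fell by 0.76 on the log2 scale in CCR7-PDPN (SE 0.11, adjusted p = 9.73e-06), more than 94.4% of all tested genes moved in that comparison. Relative to X2-PDPN it fell by 0.95 (SE 0.09, adjusted p = 2.05e-12). Each of these calls held with any 1 library left out. CCR7-PDPN and X2 were not told apart: the log2 fold change was -0.16 in batch 1 (95% interval -0.40 to 0.08, adjusted p = 0.226) and -0.06 in batch 2 (95% interval -0.26 to 0.15, adjusted p = 0.643).

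Arrb2, the more abundant beta-arrestin transcript, moved the opposite way and by less. X2 of batch 1 held 48.6, 49.7, 47.4 and 48.1 TPM, CCR7 43.8, 42.1, 46.8 and 43.0 TPM, and CCR7-PDPN 44.8, 47.4, 49.0 and 49.2 TPM. CCR7 lay below X2 without overlap. X2 of batch 2 held 52.5, 53.3, 46.2 and 48.7 TPM, X2-PDPN 41.1, 43.1, 45.6 and 39.9 TPM, and CCR7-PDPN 50.5, 46.4, 46.2 and 43.3 TPM. X2-PDPN lay below X2, and CCR7-PDPN overlapped both.

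Arrb2 in CCR7 against X2 had a log2 fold change of -0.14 (SE 0.05, adjusted p = 0.0141) and in X2-PDPN against X2 one of -0.25 (SE 0.05, adjusted p = 4.15e-05). CCR7-PDPN was 10.2% above CCR7 (adjusted p = 0.0173) and 11.5% above X2-PDPN (adjusted p = 0.00554). The first of these was lost without CCR7 replicate 2 (adjusted p = 0.0588) and without CCR7-PDPN replicate 4 (adjusted p = 0.0548). Against X2, the CCR7-PDPN log2 fold change had a 95% interval of -0.09 to 0.09 in batch 1 (adjusted p = 0.990) and of -0.19 to 0.01 in batch 2 (adjusted p = 0.111), where a call appeared without X2 replicate 3 (adjusted p = 0.0172) and without CCR7-PDPN replicate 1 (adjusted p = 0.0229). Both arrestin transcripts together stayed between 45.4 and 51.8 TPM in the group means. Arrb1 made up 5.51% ± 0.904 of them in CCR7 and 6.65% ± 0.695 in X2-PDPN, against 3.38% ± 0.214 and 3.13% ± 0.503 in X2 of batch 1 and batch 2 and 3.03% ± 0.264 and 3.17% ± 0.432 in CCR7-PDPN (SD, n = 4). These shares depend on the length used, since the exonic length of Arrb1 is 11175 bases and that of Arrb2 2845. With coding lengths the Arrb1 share was 17.1% ± 2.44 in CCR7 and 20.1% ± 1.78 in X2-PDPN, against 11.0% ± 0.644 and 10.2% ± 1.51 in X2 and 9.96% ± 0.799 and 10.4% ± 1.31 in CCR7-PDPN of batch 1 and batch 2. Ccr7 transcripts exceeded the arrestin sum 115-fold in CCR7 and 116-fold and 123-fold in CCR7-PDPN of batch 1 and batch 2, or 79.5-fold, 84.8-fold and 89.9-fold with coding lengths. These ratios too depend on the length assumed for the vector cDNA, which was not stated.

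Counted over the 5 genes that could be tested, all 5 passed an adjusted p of 0.05 in CCR7 against X2, where 49.3% of all tested genes did. With the study's further rule of an absolute log2 fold change above 1, Ccr7 remained, against 6.48% of all genes. Ccr7 was carried in by the vector, so its call between cells with and without the vector was set by the design. The counts here include it, and each call with the fold rule in the 6 comparisons was Ccr7. In CCR7-PDPN against CCR7, 4 of 5 passed (41.6% of all genes) and 0 did so with the fold rule (3.27%). In CCR7-PDPN against X2 of batch 1 it was 2 of 5, Ccr7 and Gnai2 (60.9%), and 1 with the fold rule (9.45%).
In batch 2, X2-PDPN against X2 had 4 of 5 (56.8%) and 0 with the fold rule (5.05%). CCR7-PDPN against X2-PDPN had 4 of 5 (63.2%) and 1 with the fold rule (9.16%), and CCR7-PDPN against X2 had 3 of 5 (64.8%) and 1 with the fold rule (9.63%). With about 41.6% to 64.8% of all genes passing, a call by itself sets none of these genes apart, and apart from Ccr7 the differences were below 1 on the log2 scale.

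**Figure D4:**
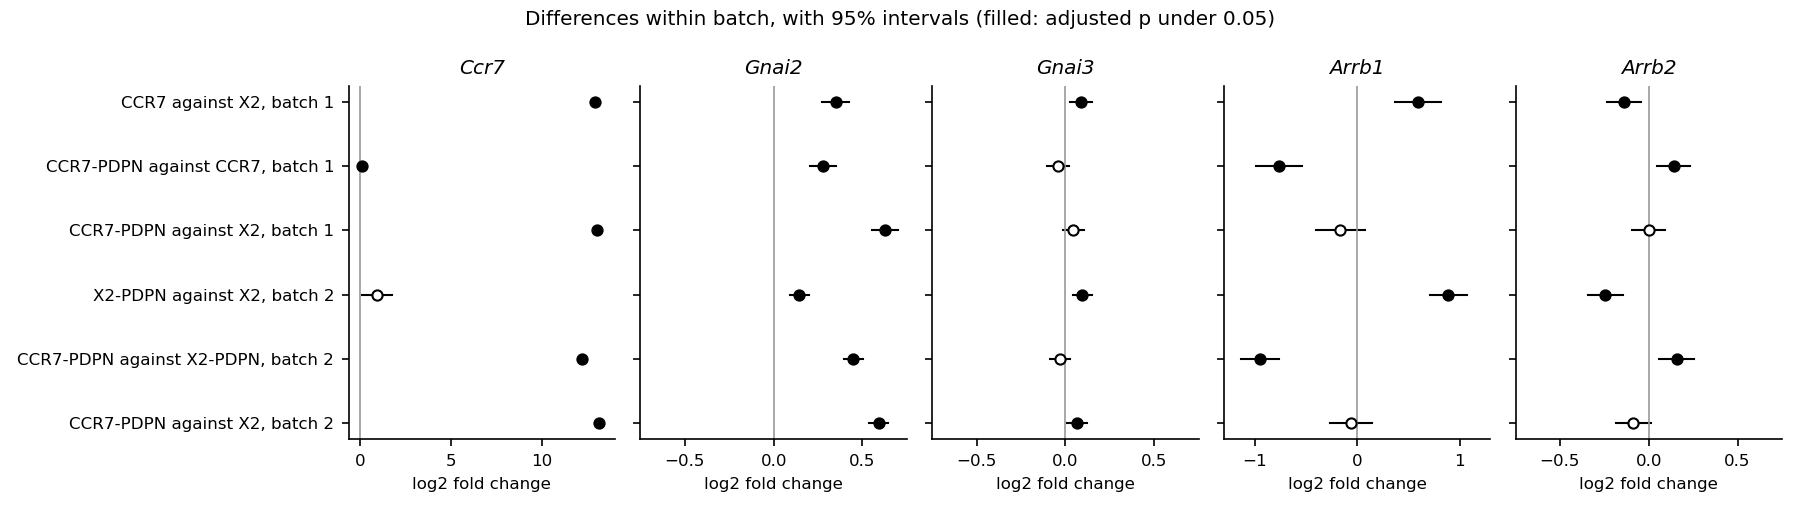
Log2 fold change of the 5 tested genes in the 6 comparisons within a batch, with 95% intervals; filled points passed an adjusted p of 0.05 (edgeR). The axes differ between genes. For Ccr7 between cells with and without its vector, the drawn intervals are too narrow for the few reads of the cells without it. Arrb1 and Arrb2 lie on opposite sides of 0 in CCR7 against X2, in CCR7-PDPN against CCR7, in X2-PDPN against X2 and in CCR7-PDPN against X2-PDPN.

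The design asks whether the PDPN-sorted cells differed in the same way with and without CCR7. The difference between CCR7-PDPN and CCR7 less that between X2-PDPN and X2 was estimated over all 24 libraries with a term for batch, which X2 and CCR7-PDPN, sequenced in both batches, allow to be fitted. It was largest for Arrb1, at -1.60 on the log2 scale (SE 0.12, adjusted p = 3.02e-14), since Arrb1 was higher in PDPN-sorted cells without CCR7 and lower in those with it. For Arrb2 it was 0.35 (SE 0.06, adjusted p = 1.28e-05), for Gnai3 -0.13 (SE 0.03, adjusted p = 0.00191) and for Gnai2 0.12 (SE 0.04, adjusted p = 0.00894). For Ccr7 it was -0.76 (SE 0.28, adjusted p = 0.0289). With the 6 groups fitted and the CCR7 difference with PDPN in batch 2 set against that without in batch 1, Gnai2 was at 0.10 and no longer passed (adjusted p = 0.0635), nor did Ccr7 (adjusted p = 0.102). With the PDPN difference with CCR7 in batch 1 set against that without in batch 2, Ccr7 also did not pass (adjusted p = 0.0609). The Ccr7 call rested on the few reads of X2-PDPN and was lost as well without X2-PDPN replicate 1 (adjusted p = 0.144) or without X2-PDPN replicate 3 (adjusted p = 0.0825). All 5 passed, against 46.4% of all genes. The CCR7 cells were sequenced in batch 1 and the X2-PDPN cells in batch 2, so the test leans on the batch term being the same for every derivative. The PDPN differences it sets against each other are also not alike, since CCR7 was a PDPN-negative sort and X2 was not described as one.

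The CCR7-PDPN to X2 difference was measured in both batches and could be compared directly. None of the 5 genes passed a test of the difference between the batches. With edgeR 0% of all genes did (0 of 13690), with 293 at an unadjusted p under 0.05, and DESeq2 gave 0 and 211. The estimate for Gnai2 was 0.03 (95% interval -0.06 to 0.12), for Gnai3 -0.02 (95% interval -0.10 to 0.06) and for Arrb2 0.09 (95% interval -0.05 to 0.23). Those for Arrb1, -0.11 (95% interval -0.42 to 0.21), and for Ccr7, -0.10 (95% interval -0.93 to 0.74), had wider intervals.

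The surrounding pathway was read from lists of 128 genes, of which 73 could be tested in each comparison. The ligand genes Ccl19, Ccl21a and Ccl21b had 0 reads in every batch 1 library, as had the scavenging receptor Ackr4 and the chemokine receptor Cxcr4. Ccl21c had no matching identifier, and whether reads of the Ccl21 genes can be assigned to a single gene was not examined. Ackr3, an atypical receptor that takes up CXCL12 without G protein signalling, was the 1 of 19 other chemokine receptors with enough reads to be tested. It stood at 13.8 ± 0.551 TPM in X2, 7.11 ± 0.741 TPM in CCR7 and 5.32 ± 0.709 TPM in CCR7-PDPN of batch 1 and at 13.2 ± 0.813 TPM in X2-PDPN. It fell by 0.97 on the log2 scale in CCR7 against X2 (adjusted p = 5.66e-09) and by 1.33 in CCR7-PDPN against X2-PDPN (adjusted p = 7.30e-18), and X2-PDPN against X2 gave -0.09 (adjusted p = 0.279).

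Of the 73 pathway genes, 16 were higher and 23 lower in CCR7 than in X2, with a median log2 fold change of 0.01 beside 0.00 for all genes. That is 53.4% of the list called, against 49.3% of all genes. For CCR7-PDPN against CCR7 the numbers were 24 and 13 (median 0.06), and for CCR7-PDPN against X2 of batch 1 they were 34 and 24 (median 0.06). X2-PDPN had 29 higher and 13 lower genes relative to X2 (median 0.02). CCR7-PDPN of batch 2 had 24 and 31 relative to X2-PDPN (median -0.14) and 31 and 26 relative to X2 (median 0.03). In this order the list had 50.7%, 79.5%, 57.5%, 75.3% and 78.1% of its genes called, against 41.6%, 60.9%, 56.8%, 63.2% and 64.8% of all genes, whose medians lay at 0.00.

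**Figure D5:**
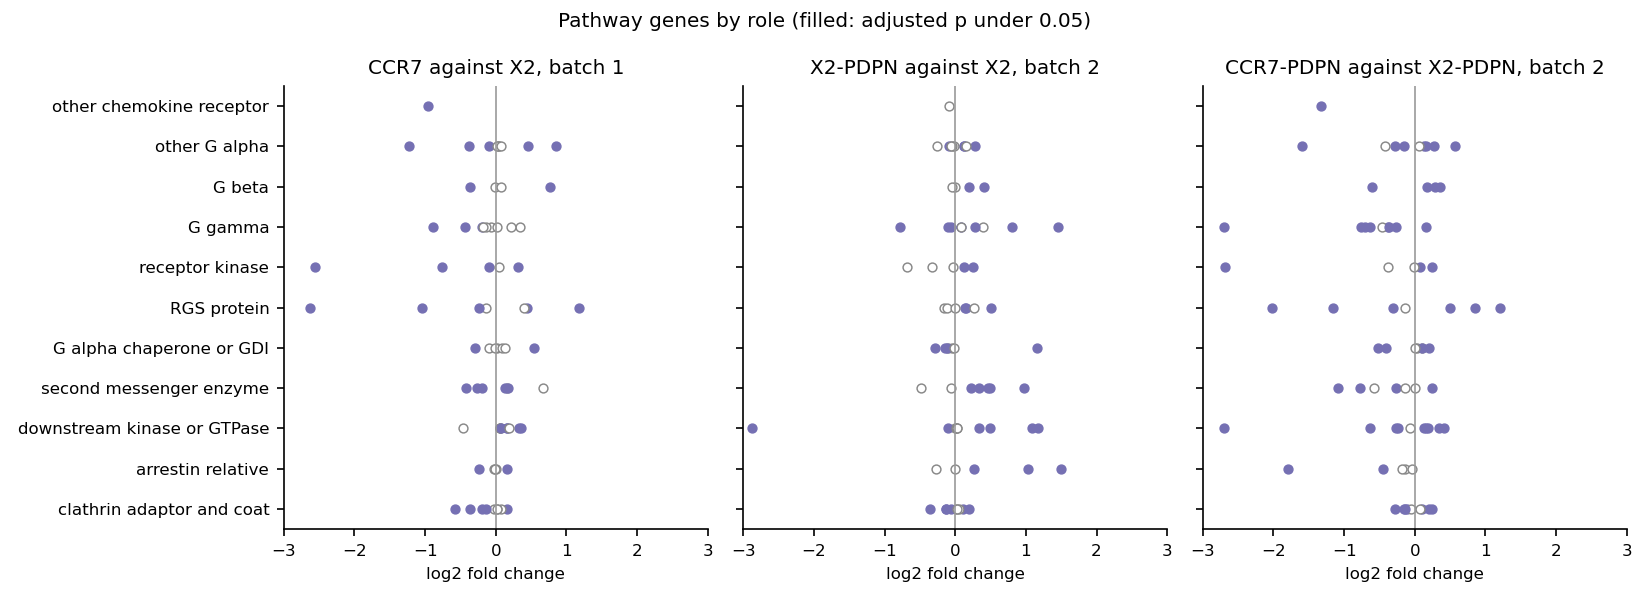
Log2 fold change of the 73 tested pathway genes in 3 comparisons, one row per role and one point per gene; filled points passed an adjusted p of 0.05. X2-PDPN had 29 higher and 13 lower genes relative to X2, and CCR7-PDPN had 24 higher and 31 lower relative to X2-PDPN, which is 57.5% and 75.3% of the list against 56.8% and 63.2% of all genes.

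Among the partners of Gi alpha, Gnb1 was the most abundant beta subunit and Gng12 the most abundant gamma subunit. Gnb1 was at 508 ± 6.36 TPM in X2, 505 ± 7.40 TPM in CCR7 and 570.3 ± 11.7 TPM in CCR7-PDPN of batch 1, a log2 fold change of 0.20 between CCR7-PDPN and CCR7 (adjusted p = 3.53e-06). CCR7-PDPN had 1 higher and 7 lower of the 9 tested gamma subunits relative to X2-PDPN (median log2 fold change -0.46), where 63.2% of all genes were called. CCR7 against X2 had 0 and 3 (33.3% called, against 49.3% of all genes), and CCR7-PDPN against CCR7 1 and 3 (44.4% against 41.6%). X2-PDPN against X2 had 4 and 3 (77.8% against 56.8%). CCR7-PDPN against X2 had 2 and 6 in batch 1 (88.9% against 60.9%) and 1 and 6 in batch 2 (77.8% against 64.8%). The 1 higher gamma subunit in CCR7-PDPN against X2-PDPN was the most abundant, Gng12 (log2 fold change 0.16, adjusted p = 5.72e-07). The median there was the value of Gng3, which was not called (adjusted p = 0.126) and had a mean log2 CPM of -0.51. Gnas, the stimulatory alpha subunit, was the most abundant other G alpha gene, at 373 to 433 TPM in the group means, and Grk6 the most abundant receptor kinase, at a mean of 131 TPM over all libraries. By the same measure the most abundant of the other lists were Cdc42 (470.5 TPM), a GTPase of the cytoskeleton, Clta (352 TPM), a clathrin light chain, Gpsm2 (159.9 TPM), which binds Gi alpha, Plcb3 (63.6 TPM), a phospholipase C, and Ccrl2 (0.403 TPM), a receptor without G protein signalling.

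RGS proteins speed up GTP hydrolysis by G alpha subunits, and of the 8 called pathway genes past an absolute log2 fold change of 1 at a mean log2 CPM of at least 1, Rgs16 had the largest. It was at 15.8 ± 1.18 TPM in X2 and 2.53 ± 0.438 TPM in CCR7 of batch 1, a fall of 2.63 on the log2 scale (SE 0.13, adjusted p = 1.50e-13). The X2 level of batch 2 was 17.4 ± 0.363 TPM, that of X2-PDPN 15.7 ± 1.23 TPM and that of CCR7-PDPN 3.75 ± 0.388 TPM. Low levels thus went with the Ccr7 vector in both batches. Rgs14, which also binds Gi alpha through a GoLoco motif, had a log2 fold change of 1.18 in CCR7 against X2 (adjusted p = 2.20e-08) and of 1.21 in CCR7-PDPN against X2-PDPN (adjusted p = 5.64e-10). Rgs19, the most abundant of the list at 41.7 TPM, exceeded its CCR7 level in CCR7-PDPN by 0.60 on that scale (adjusted p = 8.02e-09).

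Several genes were highest in X2-PDPN, as Arrb1 was. The thioredoxin-binding arrestin relative Txnip stood at 18.1 ± 1.08 TPM in X2-PDPN and at 6.39 ± 0.844 TPM in X2 of batch 2 (log2 fold change 1.50, adjusted p = 2.77e-20), and CCR7-PDPN lay below X2-PDPN (log2 fold change -1.79, adjusted p = 9.38e-23). Arrdc3, another arrestin relative, was 1.03 higher in X2-PDPN than in X2 (adjusted p = 2.23e-26). Gpsm3, which binds GDP-bound Gi alpha, was 1.15 higher there (adjusted p = 1.38e-17), and Prex1, a Rac exchange factor driven by G beta-gamma, 1.08 higher (adjusted p = 8.76e-16). Adcy6, a cyclase that Gi alpha inhibits, was 0.46 higher in X2-PDPN than in X2 (adjusted p = 1.49e-14) and lower in CCR7 (log2 fold change -0.42, adjusted p = 5.59e-08). Its log2 fold change in CCR7-PDPN against X2-PDPN was -1.09 (adjusted p = 3.58e-27). In CCR7-PDPN against X2 of batch 2, where Arrb1 was not called, Arrdc3, Gpsm3 and Prex1 stayed higher, by 0.58, 0.64 and 0.45. Txnip and Adcy6 were lower there (log2 fold changes -0.29 and -0.63).

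The genes whose levels most resembled each gene were ranked over the 24 libraries by Pearson's r of log2 CPM (counts scaled to library size), less the mean of the X2 libraries of the same batch, among 10532 genes. The libraries share derivatives and batches, so r is a description. For Ccr7 the first 5 were Chst5 (r = 0.996), Mbtps1 (r = 0.995), Cyb5b (r = 0.995), Sntb2 (r = 0.993) and Map1lc3b (r = 0.993), and all 5 lie on chromosome 8 although Ccr7 lies on chromosome 11. They span chr8:106935750-121598760. Chst5, a sulfotransferase, stood at 26.0 ± 0.950 TPM in X2 of batch 2, 27.5 ± 1.73 TPM in X2-PDPN and 80.1 ± 2.19 TPM in CCR7-PDPN of that batch. For Gnai2 the first were Mvd (r = 0.991), an enzyme of cholesterol synthesis, and Pigq (r = 0.986). Mvd also lies on chromosome 8, at chr8:122433601-122443422, and Pigq on chromosome 17. For Gnai3 the first were Kdelc2 (r = 0.835) and Slfn9 (r = 0.810). For Arrb1 they were Sardh (r = 0.935) and Zfp469 (r = 0.912), the latter at chr8:122258620-122272650. For Arrb2 they were Isoc2a (r = 0.838) and Gatad2a (r = 0.834). Sardh, the mitochondrial sarcosine dehydrogenase, showed the order of Arrb1, with 17.0 ± 1.28 TPM in CCR7 and 27.7 ± 0.396 TPM in X2-PDPN against 11.6 ± 0.140 TPM in X2 of batch 1 and 8.83 ± 0.441 TPM in CCR7-PDPN of that batch. Between the genes followed here, r was 0.921 for Ccr7 and Gnai2 and -0.773 for Arrb1 and Arrb2.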

How the data were processed

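RNA of 24 libraries was measured. Per the file headers, the labels and the study's methods, the authors sequenced stranded mRNA libraries in single reads of 75 bases, used the GRCm38 genome, and deposited 1 table of raw counts per batch, keyed by Ensembl gene and neither normalized nor pooled. The counting software of the batch 1 table was featureCounts by its header. The batch 2 table lists 13915 genes, and the filter behind it was not given in the sources used here. TPM was computed here from the deposited exonic gene lengths over the genes in both tables.

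Counts were tested with edgeR 4.0.16 in R 4.3.3 (TMM, filterByExpr, robust quasi-likelihood, Benjamini-Hochberg over all 13261, 13314 or 13690 genes tested), within batch over the 3 groups, and over 24 libraries for the interaction and the batch difference. The SE was derived from the estimate and its F statistic. For Ccr7 between cells with and without its vector, an SE so derived is too small for the few reads involved, and none is given. Totals of 22275468 counts or more per library set the precision, and intervals cover the spread between technical replicates.

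The 6 genes and the pathway and marker lists were chosen with earlier results of these data known. Pathway genes were named where adjusted p was under 0.05 and the absolute log2 fold change above 1 in a comparison, at a mean log2 CPM of at least 1, or where they had the highest TPM of their list. The 5 genes most like Ccr7 and the 2 most like each other gene were named.

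Alternatives were DESeq2 1.42.0, RLE factors, other filters on low counts, only the 2 groups compared, a replicate block, each library left out, the median of genes within 5 Mb subtracted, other contrasts for the interaction, and coding lengths. In data simulated for CCR7 against X2 over 13261 genes, 69 of 100 genes changed by 0.25 and 100 of 100 changed by 1 on the log2 scale were called in the right direction. For X2-PDPN against X2 over 13314 genes these were 83 and 100, and for the interaction over 13690 genes 71 and 100. Only these genes were changed in the simulations, and they were drawn from genes above a floor in mean CPM. In the data 49.3% of all genes passed in CCR7 against X2, so the rates do not carry over directly. Figures used Python 3.11.15 and matplotlib 3.10.9.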

Additional observations from a re-analysis of the deposited data

Results flagged for a closer look

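Gnai2 in CCR7 replicate 1 of batch 1 lay far from the other 3 libraries of its group, at 485 CPM against 438 to 443 CPM, a gap of 0.896 of the group's range and beyond Dixon's 95% critical value for 4 samples. Without that library the log2 fold change of CCR7 against X2 was 0.31 and remained past the test. Arrb1 in X2 replicate 1 of batch 1 was low, at 4.61 CPM against 5.15 to 5.24 (0.849 of the range). Gnai1 in X2 replicate 3 of batch 1 held all of that gene's 2 reads (1 of the range). Of 31 gene and group combinations examined, 3 were so far apart, and chance does this in about 1 in 20. That rate does not apply to Gnai1, since any group with reads in only 1 library gives a value of 1.

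The PDPN difference with CCR7 less that without it passed the test for all 5 tested genes, by edgeR over 24 libraries. It was -0.76 for Ccr7, 0.12 for Gnai2, -0.13 for Gnai3, -1.60 for Arrb1 and 0.35 for Arrb2 on the log2 scale, against 46.4% of all genes passing. The Ccr7 call rested on few reads and was lost in both contrasts fitted over 6 groups (adjusted p = 0.0609 and 0.102). It was also lost without X2-PDPN replicate 1 (adjusted p = 0.144) or replicate 3 (adjusted p = 0.0825). Gnai2 did not pass in the latter of those contrasts (adjusted p = 0.0635).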

How the results depend on the processing

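Of the 5 genes tested, the numbers called under DESeq2, RLE factors, the other filters, the replicate block and each library left out stayed within 1.5 times the values in the report. With an absolute log2 fold change above 1 required as well, the counts were 1 for CCR7 against X2, 0 for CCR7-PDPN against CCR7, 1 for CCR7-PDPN against X2 in each batch, 0 for X2-PDPN against X2, 1 for CCR7-PDPN against X2-PDPN and 1 for the interaction. The gene counted was Ccr7 in the comparisons, where the vector set its call, and Arrb1 in the interaction. Over all genes this rule left 433 to 1282 of 5513 to 8626 calls in the 6 comparisons and 752 of 6359 in the interaction. Fitted as the CCR7 difference with PDPN in batch 2 less that without in batch 1, the interaction was called for 3 genes, without Ccr7 (adjusted p = 0.102) and Gnai2 (adjusted p = 0.0635). Less the median of the genes within 5 Mb, 2 values that had passed the test reversed: Gnai2 in CCR7 against X2, to -0.036, and Gnai3 in X2-PDPN against X2, to -0.017. Gnai3 in CCR7-PDPN against X2-PDPN, which had not passed with edgeR (adjusted p = 0.333), went from -0.031 to 0.052. Coding in place of exonic lengths moved 25 of 31 levels by more than 1 SD, for Ccr7 in CCR7 to 2978 TPM. Ccr7 in X2-PDPN against X2 passed in DESeq2, at 50 counts in 4 libraries, under the block and with the 2 groups alone, and its few reads limit what depth can show.

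In batch 1, correlations of same-numbered libraries ran from -0.258 to 0.123 (median -0.0371), and those of differently numbered libraries from -0.220 to 0.222 (median -0.00577). In batch 2 they ran from -0.0381 to 0.267 (median 0.0324) and from -0.189 to 0.208 (median -0.0208). There 4 of 12 same-numbered and 4 of 36 differently numbered pairs exceeded 0.1. These values show no pairing by replicate number in batch 1 and do not settle it in batch 2. With the replicate block, Ccr7 in CCR7-PDPN against CCR7 had an adjusted p of 0.0775, so 3 genes were called there, and Ccr7 in X2-PDPN against X2 one of 0.00224, so 5 were called. The block gave 5, 2, 4, 3, 5 and 0 called genes in CCR7 against X2, CCR7-PDPN against X2 of batch 1, CCR7-PDPN against X2-PDPN, CCR7-PDPN against X2 of batch 2, the interaction and the batch difference.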
